A study of Mus musculus with 40 samples.

Results

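The 8 genes described here carry the lipoprotein lipase axis and the uptake of lipoprotein lipid: Lpl, its capillary anchor Gpihbp1, its inhibitor Angptl4, its maturation factor Lmf1, the fatty acid receptor Cd36, the lipoprotein receptors Vldlr and Scarb1, and the lipoprotein ligand Apoe. The rule takes the rows with these gene symbols, and all 8 were found among the 55382 genes counted in kidney and the 55335 counted in aorta. RNA was sequenced from aorta and kidney of mice on standard fat diet (SFD, 10% of energy from fat) or high fat diet (HFD, 60%), 5 libraries for each genotype, diet and tissue, 40 in all. EC-EGFR-KO mice (KO) are EGFR flox/flox animals with Tek-cre, so that Egfr exon 1 is removed in cells with Tek (Tie2) promoter activity, which is known in blood cells as well as endothelium. The EC-EGFR-WT controls (WT) lack loxP sites but carry Cre under the Tie2 promoter, so every group carries the transgene. The diets ran for 18 weeks from an age of 6 weeks, and for HFD the labels also give a mixed diet for 7 days at 5 weeks of age. The labels' growth text names an inducible smooth muscle model in one place, although genotype labels and cross are those of the endothelial model. Sex and the hour of tissue collection are not given in the sources used here.

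Lipoprotein lipase, the product of Lpl, is secreted by parenchymal cells, folded with the help of Lmf1 in the endoplasmic reticulum, and carried by Gpihbp1 across capillary endothelium to the lumen, where it splits triglyceride in chylomicrons and VLDL. Angptl4 is a secreted protein that inhibits it. The released fatty acids enter cells in part through Cd36, Vldlr binds triglyceride-rich particles that carry apolipoprotein E, and Scarb1 takes up cholesterol ester from HDL. In mouse kidney, Lpl is known to be made by tubular cells, and the proximal tubule burns fatty acids as its main fuel.

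Total counts were 19643033 to 48833447 in kidney libraries and 17520161 to 36452741 in aorta libraries, and the biological coefficient of variation was 22.3% and 29%. Levels are given as FPM, counts per 1000000 after TMM normalization within a tissue, and a gene was called at an edgeR quasi-likelihood p under 0.05 after Benjamini-Hochberg adjustment over all genes tested. In each tissue 1 pair of libraries with different genotype labels held near-identical counts, closer than independent sampling of reads would give. In kidney these were a12 (WT HFD) and a1 (KO HFD), with a median chi-square of 0.0226 against 1.85 in the next closest pair. In aorta they were R-1 (WT SFD) and R-12 (KO SFD), with 0.0239 against 1.83. The paired libraries also had the highest total counts of their tissues. These were 48833447 (a12) and 48788716 (a1) against a kidney median of 24182781, and 36419598 (R-1) and 36452741 (R-12) against an aorta median of 19683938. Immediate-early genes stood high in the SFD kidneys a8, a9 and a17 (summed 1920 to 2150 FPM, at most 213 in the HFD kidneys), and lymphoid genes in the KO aortas R-11 and R-16 (73.7 and 119 FPM, at most 14.6 elsewhere). Egfr, the targeted gene, was at 49.3 to 64.5 FPM in WT SFD, 21.7 to 48.5 in WT HFD, 47.8 to 57.6 in KO SFD and 34.6 to 60.5 in KO HFD kidneys, and at 29.9 to 54.2, 36.4 to 51.7, 37.6 to 50 and 36.9 to 54.7 FPM in the same order in aortas. Counts over the whole gene in whole tissue include the cells that keep it and did not test the deletion.

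In kidney, HFD changed 3 of the 8 genes in both genotypes. Lpl fell to means of 362 and 396 FPM from 1240 and 1170, Cd36 fell more moderately, and Apoe rose 4.36-fold in WT and 4.59-fold in KO. The other 5 genes were not called. For comparison, 6.71% of all 15943 genes tested were called in WT and 6.34% in KO. With the study's further filters (fold change above 1.5 and a group mean above 5 FPM) the same 3 members passed in each genotype, against 2.18% and 2.16% of all genes. The HFD and SFD libraries did not overlap for these 3 members in either genotype, while 6.64% of all genes in WT and 7.81% in KO had groups that did not overlap. Averaged over genotypes without the near-identical pair, Lpl, Cd36 and Apoe were again called (log2 fold changes -1.7, -0.7 and 2.16), against 14.7% of all genes. The median log2 fold change of the 8 members was 0.02 in WT and 0.12 in KO, beside 0 over all genes in both.

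**Figure D1:**
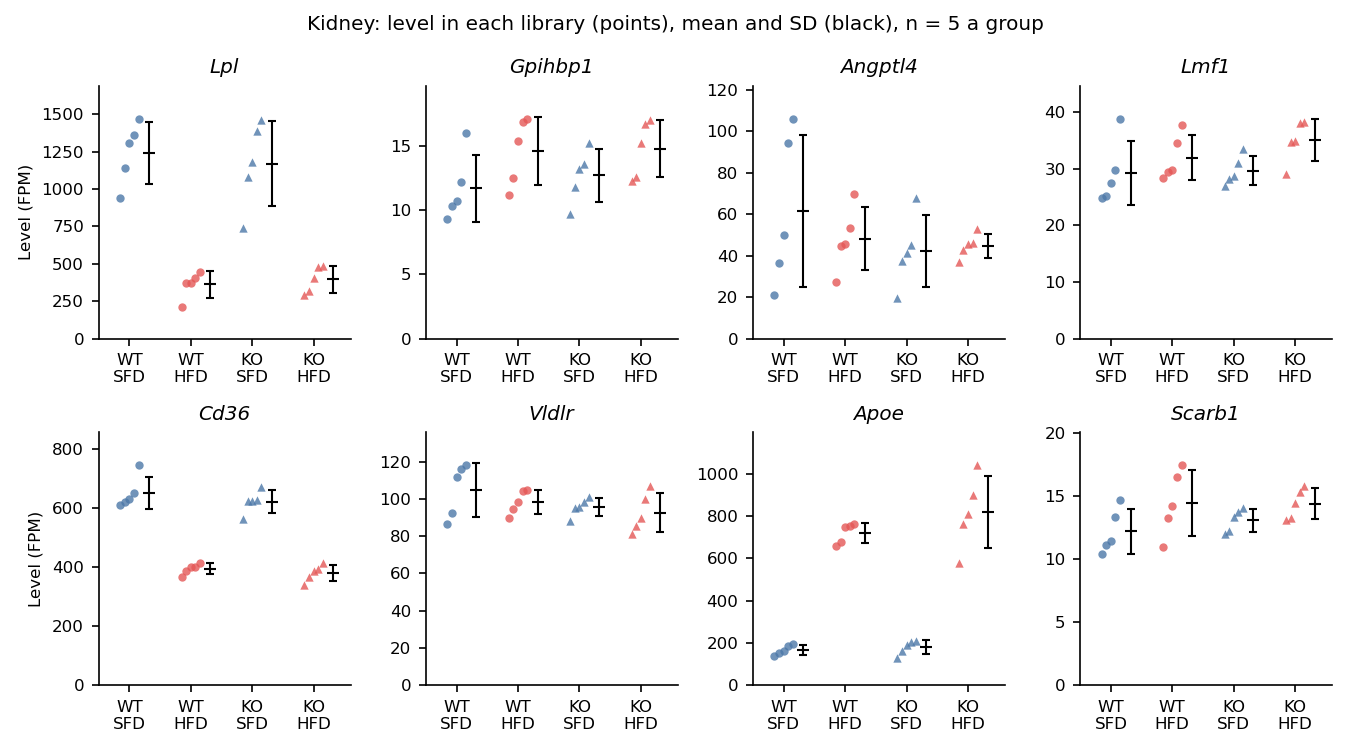
Level in FPM (vertical axes, from 0) of each of the 8 genes in the 20 kidney libraries, with circles for WT, triangles for KO, blue for SFD and red for HFD, and the mean and SD of 5 libraries in black. The red and blue points separate for Lpl, Cd36 and Apoe in both genotypes and overlap for the other 5 genes.

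Lpl lies at chr8:68880491-68907448 on the plus strand (GRCm38). Its level in the WT SFD kidneys was 941, 1140, 1310, 1360 and 1470 FPM, and in the WT HFD kidneys 211, 374, 374, 405 and 447 FPM. In KO it was 739, 1080, 1180, 1390 and 1460 FPM under SFD and 288, 320, 405, 482 and 487 FPM under HFD. Every HFD kidney was thus below every SFD kidney of either genotype. The fall was -1.78 ± 0.21 in WT (log2 fold change ± SE, 3.43-fold lower, adjusted p = 2.18e-05, edgeR) and -1.56 ± 0.21 in KO (2.95-fold lower, adjusted p = 7.4e-05, edgeR). It was seen at -1.82 and -1.57 without the near-identical kidneys, and at -1.74 and -1.42 without a8, a9 and a17. Lpl is also expressed by adipocytes, and the 2 WT SFD kidneys with the highest summed adipocyte markers, a19 at 200 FPM and a16 at 156 FPM, had the lowest Lpl of their group. In WT HFD the kidney with the highest sum, a13 at 106 FPM, had the highest Lpl (447 FPM). In KO HFD the kidney with the highest sum, a3 at 172 FPM, had 482 FPM. The KO HFD kidney with the lowest sum, a5 at 48.7 FPM, had the highest Lpl of that group (487 FPM). Over 19 distinct kidneys r between the adipocyte score and Lpl was -0.22, and -0.11 within groups. Of 11 testable adipocyte markers, 2 fell in WT, and 1 rose and 1 fell in KO.

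The partners that carry, fold or inhibit the enzyme were not called. Gpihbp1 (chr15:75596628-75599481) was at 9.27 to 16 FPM in WT SFD and 11.2 to 17.1 FPM in WT HFD kidneys, and at 9.7 to 15.2 and 12.3 to 17 FPM in KO. Its mean was higher under HFD in both genotypes but the groups overlapped (log2 fold change 0.33, 95% interval 0 to 0.65, in WT and 0.21, -0.12 to 0.54, in KO). Lmf1 (chr17:25579085-25662826) was at 24.9 to 38.8 FPM in WT SFD and 28.3 to 37.7 FPM in WT HFD kidneys, with a difference of 0.13 (-0.11 to 0.37), and in KO the difference was 0.24 (0 to 0.48). Angptl4 (chr17:33773750-33781830), which is induced by fasting and fatty acids in many tissues, varied widely between animals in 3 of the 4 groups. It ranged from 21 to 106 FPM in WT SFD and 27.5 to 69.9 FPM in WT HFD kidneys, and from 19.8 to 67.7 and 37 to 53 FPM in KO. The difference was -0.35 (-1.13 to 0.42) in WT and 0.09 (-0.69 to 0.87) in KO, intervals wide enough to hold a sizeable change either way. The coefficient of variation of Angptl4 was 60.1% under SFD and 31.8% under HFD for WT kidneys, and 40.8% and 13% for KO kidneys.

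Cd36 takes up long-chain fatty acids and oxidized LDL, and in kidney it is found in tubule, endothelium and macrophages. It lies at chr5:17781690-17888801 on the minus strand. WT kidneys held 612, 622, 631, 652 and 745 FPM under SFD and 368, 388, 402, 402 and 415 FPM under HFD. KO kidneys held 564, 623, 625, 629 and 672 FPM under SFD and 341, 368, 386, 392 and 414 FPM under HFD. The libraries of a group lay close together and the diets were well apart, with a coefficient of variation of 4.52% to 8.26%. The fall was -0.72 ± 0.07 in WT (1.65-fold lower, adjusted p = 1.67e-06, edgeR) and -0.71 ± 0.07 in KO (1.64-fold lower, adjusted p = 2.4e-06, edgeR). Without the near-identical kidneys it was -0.7 in both genotypes.

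The RefSeq promoter table (GRCm38.p6, 250 bases before to 50 after a start site) holds 4 of the 8 members, Cd36, Apoe, Lmf1 and Vldlr. The windows of Cd36, which fell, and of Apoe, which rose, are shown because these are the changed members with an entry. Capitals mark matches to 7 motifs searched on both strands. AGGTCA is the half-site that many nuclear receptors bind. Its direct repeats were searched as AGGTCANAGGTCA (DR1, the spacing known for PPAR) and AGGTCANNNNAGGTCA (DR4, the spacing known for LXR), and both contain the half-site. The E-box, spelled CACGTG, is read by basic helix-loop-helix factors. The GC box, spelled GGGCGG, is read by the Sp family. The CCAAT motif and the TATA motif (searched as TATAAA) are common elements near start sites. The windows are chr5:17835847-17836146, minus strand, at a start inside the annotated Cd36 gene, and chr7:19699139-19699438, minus strand, at the outermost Apoe start.
Cd36: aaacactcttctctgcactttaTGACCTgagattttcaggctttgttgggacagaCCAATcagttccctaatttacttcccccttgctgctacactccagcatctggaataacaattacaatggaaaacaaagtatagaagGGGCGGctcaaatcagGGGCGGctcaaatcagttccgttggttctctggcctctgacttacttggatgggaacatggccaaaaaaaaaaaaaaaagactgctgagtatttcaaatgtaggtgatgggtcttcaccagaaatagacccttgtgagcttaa
Apoe: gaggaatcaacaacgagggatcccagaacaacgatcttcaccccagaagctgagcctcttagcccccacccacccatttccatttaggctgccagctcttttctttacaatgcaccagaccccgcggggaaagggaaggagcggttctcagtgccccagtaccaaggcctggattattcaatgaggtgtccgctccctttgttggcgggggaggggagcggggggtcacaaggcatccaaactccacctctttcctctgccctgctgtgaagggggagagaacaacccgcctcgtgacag
The Cd36 window held 1 half-site (read on the opposite strand, as TGACCT), 1 CCAAT and 2 GC boxes, while this Apoe window held none of the 7 motifs. The table has 2 more Apoe windows, at starts inside the gene, of which 1 held 2 matches to TATAAA and the other none. Among all 32851 windows of this length, 16.3% held the half-site, 37.4% CCAAT, 35.7% the GC box, 7.15% the E-box, 13.6% TATAAA, 0.0396% DR1 and 0.0152% DR4. GC content was 43% in the Cd36 window and 57.7% in the Apoe window. A match is a description of letters in a short window and says nothing of binding.

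Apoe encodes the apolipoprotein E of VLDL, chylomicron remnants and HDL, the ligand of the LDL receptor family, and is made outside the liver by macrophages, smooth muscle and renal cells among others. It lies at chr7:19696109-19699188 on the minus strand. WT kidneys held 138, 151, 159, 186 and 192 FPM under SFD and 660, 678, 749, 753 and 763 FPM under HFD. KO kidneys held 128, 162, 190, 202 and 208 FPM under SFD and 579, 763, 812, 898 and 1040 FPM under HFD. The lowest HFD kidney was far above the highest SFD kidney in both genotypes. The rise was 2.12 ± 0.15 in WT (4.36-fold, adjusted p = 3.65e-08, edgeR) and 2.2 ± 0.15 in KO (4.59-fold, adjusted p = 2.03e-08, edgeR), at rank 2 by p among 15943 genes in each genotype. It was 2.1 and 2.22 without the near-identical kidneys, and 2.17 and 2.16 without a8, a9 and a17.

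The 2 lipoprotein receptors among the members were not called in kidney. Vldlr (chr19:27216484-27254231) was at 86.6 to 118 FPM in WT SFD and 89.8 to 105 FPM in WT HFD kidneys, and at 88.3 to 101 and 81.1 to 107 FPM in KO, with differences of -0.09 (95% interval -0.28 to 0.1) and -0.05 (-0.24 to 0.14). Scarb1 (chr5:125277087-125341094, where the annotation has a gene model still to be experimentally checked, Gm42633, overlapping on the same strand) was at 10.4 to 14.7 FPM in WT SFD and 10.9 to 17.4 FPM in WT HFD kidneys. Its difference was 0.25 (0 to 0.5, unadjusted p = 0.049, adjusted p = 0.255, edgeR) in WT and 0.14 (-0.11 to 0.39) in KO. In the list of 19 further lipoprotein receptors and their adaptors, 0 of the 16 testable genes were called in either genotype by edgeR, with 4 at an unadjusted p under 0.05 in each. Averaged over genotypes, 1 of the 16 was called higher and 3 lower, where 14.7% of all genes were called. Lrp2, the large scavenger receptor of proximal tubule, was at 1810 ± 154 FPM under SFD and 1550 ± 137 FPM under HFD in WT (adjusted p = 0.211).

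Per kilobase of annotated exon, taken as the union over all transcripts of a gene, the order in WT SFD kidneys was Cd36 (182 ± 15 FPM per kb, SD, n = 5), Lpl (119 ± 19.7), Apoe (77.3 ± 10.8), Angptl4 (17.4 ± 10.5), Vldlr (10.4 ± 1.45), Gpihbp1 (4.58 ± 1.03), Lmf1 (2.15 ± 0.419) and Scarb1 (1.43 ± 0.212). The order depends on these lengths, 10.48 kb for Lpl and 3.59 kb for Cd36, and which transcripts were in use was not determined. Before the division by length, Lpl (1240 FPM) stood above Cd36 (652 FPM). Angptl4 and Vldlr lay within the spread of Angptl4. In WT HFD kidneys Apoe stood above Cd36 and Lpl, with Apoe at 337 ± 22.4, Cd36 at 110 ± 4.97 and Lpl at 34.6 ± 8.57 FPM per kb. KO kidneys had the same order, from Cd36 at 173 ± 10.7 through Lpl at 112 ± 27.3 to Apoe at 83.4 ± 15.5 under SFD, and Apoe at 383 ± 79.9, Cd36 at 106 ± 7.62 and Lpl at 37.8 ± 8.7 under HFD.

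No difference between the genotypes was detected in kidney for any of the 8 genes. Between KO and WT, edgeR called 0 of 8 under SFD, 0 under HFD and 0 in the interaction of diet and genotype, with 0 of 8 at an unadjusted p under 0.05 in each, and DESeq2 also called 0. The share called over all genes was 0 in these 3 comparisons as well. For Lpl the interaction was 0.22 (95% interval -0.38 to 0.82), for Cd36 0.01 ± 0.1 (SE) and for Apoe 0.07 (-0.34 to 0.49). The pair a12 and a1 places near-identical counts in both arms under HFD. Leaving both out gave 0 calls again.

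**Figure D2:**
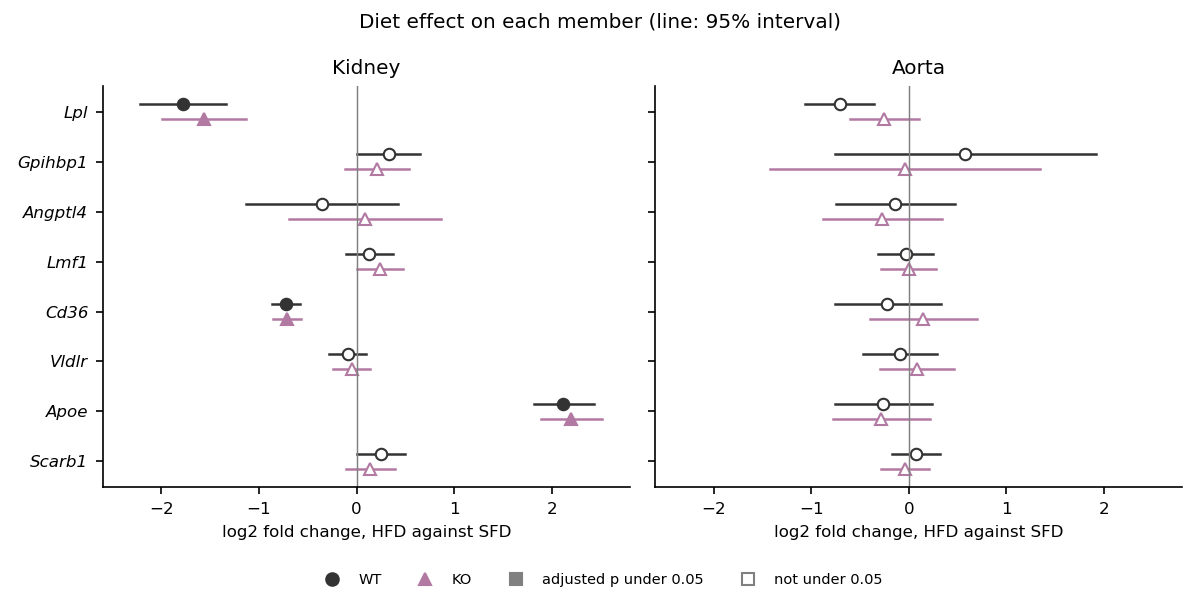
Log2 fold change of HFD against SFD (horizontal axis) for each gene in kidney and aorta, with circles for WT, triangles for KO, filled symbols for an adjusted p under 0.05 and lines for the 95% interval. Lpl (-1.78 and -1.56), Cd36 (-0.72 and -0.71) and Apoe (2.12 and 2.2) are filled in kidney, and no symbol is filled in aorta.

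Several other gene groups moved with diet in the same kidneys, and their part in the changes of Lpl, Cd36 and Apoe was not tested. Macrophages express Apoe and Cd36. Of 10 macrophage markers, 4 (C1qb, C1qc, Cd68 and Lyz2) rose in WT and 0 in KO (6 at an unadjusted p under 0.05), 7 rose averaged over genotypes, 0 were called in the interaction, and their summed level was 108 to 182 FPM in WT SFD, 153 to 221 in WT HFD, 129 to 168 in KO SFD and 155 to 220 in KO HFD kidneys. Cd163 was under 1 FPM in the mean of each group. Over 19 distinct kidneys the macrophage score had r = 0.71 with Apoe and -0.66 with both Lpl and Cd36, and within groups 0.31, -0.09 and 0.01. Of 9 testable endothelial markers, 0 were called in either genotype (1 at an unadjusted p under 0.05 in WT and 0 in KO). Of 8 proximal tubule markers, Aqp1 and Slc22a6 fell and Slc5a2 rose in both genotypes, Slc27a2 fell in KO, and the summed level was 13900 to 16600 FPM in WT SFD and 12800 to 14100 FPM in WT HFD kidneys.

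A set of 12 genes known to be higher in kidneys of male than of female mice, written after the values had been seen, was mostly lower under HFD. In WT 10 of the 12 fell and in KO 8, among them Kap (27500 to 15800 FPM in WT, not called in KO), Odc1, Slco1a1 and Acsm3. Their summed level was 33600 to 59400 FPM in WT SFD, 19600 to 29200 in WT HFD, 37100 to 44800 in KO SFD and 23500 to 31000 in KO HFD kidneys, so the diets did not overlap in either genotype. Over 19 distinct kidneys the mean log2 level of the set had a Pearson r of 0.94 with Lpl, 0.95 with Cd36 and -0.96 with Apoe. Within groups r was 0.47, 0.36 and -0.33. All these values share the libraries and the diet split.

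The 3 changed genes also followed each other. Over the 19 distinct kidneys, log2 levels of Lpl and Cd36 had r = 0.92, Lpl and Apoe -0.94, and Cd36 and Apoe -0.97. With the group means removed, these became 0.27, -0.5 and -0.35, so most of the shared variation was the difference between diets. The kidney genes with the most similar pattern to Lpl, by Pearson r of log2 level, were Slc1a4 (0.967), Msantd3 (0.957) and Tmprss9 (0.956), to Cd36 Agps (0.981), Acsm3 (0.974) and Akr1c14 (0.972), and to Apoe Gc (0.983), Fndc5 (0.974) and Rnase4 (0.972). Acsm3 is also a gene of the male-biased set above, so its likeness to Cd36 is not separate from that of the set. Gpihbp1 was most like Efhd2 (0.89), H2-Eb1 (0.855) and H2-Aa (0.845), the latter pair MHC class II genes. Vldlr was most like Pkd2 (0.921), Invs (0.919) and Mut (0.903), and Scarb1 most like Fcgr3 (0.888), Rasa3 (0.886) and Art4 (0.88). Lmf1 was most like Fcgrt (0.926), Pfdn1 (0.9) and Fam25c (0.899), and Angptl4 most like the lncRNA 4933412E12Rik (0.873), Mapk14 (0.801) and Slc22a5 (0.8).

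In aorta none of the 8 genes was called for diet. edgeR called 0 of 8 in WT, where 0.0132% of 15122 genes were called (Lpl alone had an unadjusted p under 0.05), and 0 of 8 in KO, where the share was 0 (0 members at an unadjusted p under 0.05). DESeq2 also called 0 in each. Averaged over genotypes 0 of 8 were called, against 0.00656% of all genes. No member had diet groups that did not overlap, while 0.41% of all genes in WT and 0.721% in KO did. The median log2 fold change of the members was -0.12 in WT and -0.04 in KO, beside 0.01 and -0.01 over all genes.

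**Figure D3:**
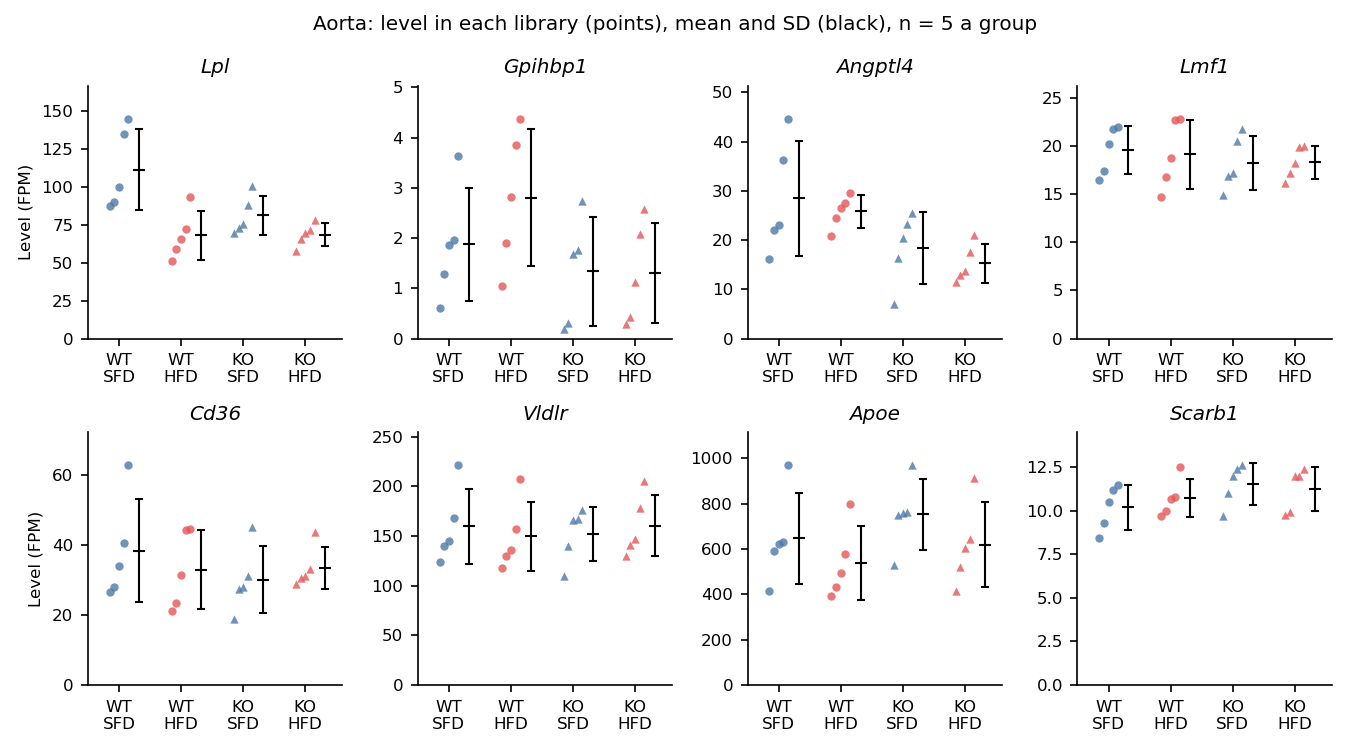
Level in FPM (vertical axes, from 0) of the 8 genes in the 20 aorta libraries, drawn as for kidney. The points of SFD and HFD overlap for every gene, with the widest separation for Lpl in WT (87.8 to 145 against 50.9 to 93.4 FPM).

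Lpl came closest to a change. WT aortas held 87.8, 89.9, 99.9, 135 and 145 FPM under SFD and 50.9, 58.8, 65.7, 72.1 and 93.4 FPM under HFD. KO aortas held 69.6, 72.9, 75.5, 88.1 and 101 FPM under SFD and 58.1, 65.4, 69.9, 71.5 and 78.2 FPM under HFD. In WT, 1 HFD aorta (R-8, 93.4 FPM) lay above the lowest SFD aortas and the others were below them. The difference was -0.71 ± 0.17 in WT (95% interval -1.06 to -0.36, unadjusted p = 0.000455, adjusted p = 0.688, edgeR), and with DESeq2 the adjusted p was 0.0784. In KO it was -0.25 ± 0.17 (-0.6 to 0.1), and the interaction was 0.46 (-0.03 to 0.96, adjusted p = 1). Under SFD, Lpl was at 81.5 ± 13.2 FPM in KO and 112 ± 26.8 FPM in WT (SD, n = 5, adjusted p = 1, edgeR). The near-identical aortas R-1 (WT, 87.8 FPM) and R-12 (KO, 88.1 FPM) stand in both arms of this comparison.

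Aortic Lpl moved with adipocyte markers, whose part in its level was not tested. Of 13 markers 12 were testable and 0 were called in either genotype (5 in WT and 4 in KO at an unadjusted p under 0.05). Their sum was 101 to 410 FPM in WT SFD, 18 to 132 in WT HFD, 52.3 to 202 in KO SFD and 40.7 to 55.6 in KO HFD aortas. Adipoq, which is specific to adipocytes, had means of 22.5, 7.66, 7.78 and 4.31 FPM in the same order and was thus detected in every group. Over 19 distinct aortas the mean log2 level of the markers had r = 0.84 with Lpl (rho 0.69), and r = 0.73 within groups. The genes most like Lpl were Cfd (0.868), Car3 (0.86) and Retn (0.858), all known from adipocytes. Cfd and Retn are themselves among the markers, so their likeness adds nothing separate. With the marker score in the fit, the difference of Lpl in WT was -0.36 (adjusted p = 0.698, edgeR) in place of -0.71. The score itself differed between the diets (median 1.1 in WT SFD and 0.23 in WT HFD), so this fit cannot separate diet from marker level. As these are whole tissues, fewer cells of a type and less RNA per cell cannot be told apart.

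**Figure D4:**
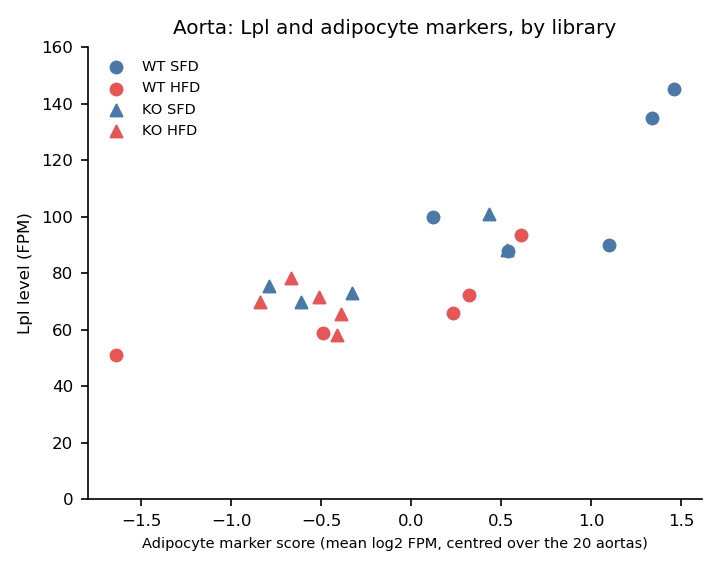
Level of Lpl in FPM (vertical axis, from 0) against the mean log2 level of the adipocyte markers, centred over aortas (horizontal axis), for the 20 aorta libraries with circles for WT, triangles for KO, blue for SFD and red for HFD. The 2 highest Lpl values (135 and 145 FPM, WT SFD) are at the highest scores, 1.34 and 1.46, and the lowest (50.9 FPM, WT HFD) at the lowest, -1.64.

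Apoe was the most abundant member in aorta, at 416, 592, 622, 632 and 968 FPM in WT SFD and 392, 432, 492, 577 and 799 FPM in WT HFD aortas. In KO it was 528, 748, 757, 763 and 968 FPM under SFD and 413, 521, 603, 643 and 914 FPM under HFD. The groups overlapped almost entirely, and the differences were -0.26 (95% interval -0.76 to 0.24) and -0.28 (-0.78 to 0.22). Cd36 was at 26.5 to 62.6 FPM in WT SFD and 21 to 44.4 FPM in WT HFD aortas, and at 18.7 to 45.1 and 28.7 to 43.5 FPM in KO, with differences of -0.22 (-0.76 to 0.33) and 0.15 (-0.4 to 0.7). Vldlr, high in heart and muscle, was at 124 to 221 and 118 to 207 FPM in WT and at 110 to 176 and 130 to 205 FPM in KO. Its differences were -0.09 (-0.47 to 0.29) and 0.08 (-0.3 to 0.46).

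Scarb1 was at 8.46 to 12.6 FPM over all 20 aortas and its diet differences were 0.07 (-0.17 to 0.32) and -0.04 (-0.28 to 0.21). Lmf1 was at 14.7 to 22.8 FPM with differences of -0.03 (-0.32 to 0.25) and 0 (-0.28 to 0.28). Gpihbp1, which is restricted to capillary endothelium and not found in that of large arteries, was near the limit of detection, with 4 to 83 counts a library and 0.188 to 4.37 FPM. The differences of 0.58 (-0.76 to 1.92) in WT and -0.04 (-1.42 to 1.34) in KO were too uncertain at this depth to give a direction. Over 19 aortas the log2 level of Gpihbp1 had r = -0.79 with Vldlr and 0.64 with Lmf1, and these were -0.87 and 0.65 within groups. Skeletal muscle markers, which summed to 4.29 to 12.4 FPM, had r = 0.61 with Gpihbp1, 0.82 with Lmf1 and -0.81 with Vldlr (0.73, 0.87 and -0.9 within groups), and brown adipocyte markers had r = 0.76, 0.54 and -0.65. Their part in these levels was not tested.

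Angptl4 had the lowest unadjusted p-values between genotypes in aorta together with Lpl, but neither was called. It was at 16.2, 22.1, 23.1, 36.2 and 44.6 FPM in WT SFD and 6.93, 16.3, 20.4, 23.3 and 25.4 FPM in KO SFD aortas. Here the near-identical R-1 (WT, 23.1 FPM) and R-12 (KO, 23.3 FPM) stand in both arms, and leaving both out gave 0 called members under SFD again. Under HFD Angptl4 was at 20.8, 24.5, 26.6, 27.6 and 29.6 FPM in WT and 11.4, 12.8, 13.8, 17.5 and 21.1 FPM in KO. Only 1 KO HFD aorta (R-17, 21.1 FPM) exceeded the lowest WT HFD aorta. The differences were -0.62 ± 0.29 under SFD (unadjusted p = 0.0462, adjusted p = 1, edgeR) and -0.75 ± 0.29 under HFD (unadjusted p = 0.019, adjusted p = 0.702, edgeR). In all, 0 of 8 members were called between genotypes under either diet or in the interaction (2, 1 and 0 at an unadjusted p under 0.05), DESeq2 also called 0, and the share over all genes was 0 in each. The diet effect on Angptl4 was -0.14 (-0.75 to 0.47) in WT and -0.27 (-0.88 to 0.34) in KO. All 12 testable adipocyte markers were lower in KO than in WT aortas under each diet, with 0 called. Their median log2 fold change was -1.28 under SFD and -0.75 under HFD, with 8 and 2 at an unadjusted p under 0.05 by edgeR. Over 19 distinct aortas the adipocyte score had r = 0.49 with Angptl4 (0.27 within groups). The part of these markers in the genotype differences of Angptl4 and Lpl was not tested.

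Levels per kilobase in WT SFD aortas were 302 ± 93.7 for Apoe, 15.9 ± 3.77 for Vldlr, 10.7 ± 2.55 for Lpl, 10.7 ± 4.09 for Cd36, 8.03 ± 3.28 for Angptl4, 1.44 ± 0.184 for Lmf1, 1.2 ± 0.151 for Scarb1 and 0.733 ± 0.441 for Gpihbp1 (FPM per kb, SD, n = 5). On these exon union lengths, Vldlr, Lpl, Cd36 and Angptl4 lay within each other's spread from neighbour to neighbour. Before the division by length, Lpl had a mean of 112 FPM and Cd36 of 38.2 FPM. Of the genes most similar in pattern, Vldlr had Atf6 (r = 0.974), Sbf2 (0.973) and Irs1 (0.972) and Apoe had Ifngr1 (0.934), Os9 (0.904) and Cd302 (0.896) over 19 aortas. Lmf1 had Naxd (0.945), Yif1a (0.932) and the snoRNA Gm23713 (0.93), Gpihbp1 had Acaa2 (0.89), the pseudogene Gm6204 (0.885) and Tomm5 (0.872), and Scarb1 had Chd8 (0.838), Amz1 (0.838) and Akna (0.83). Likeness was lower for Angptl4, with Cryz at 0.786, Exd1 at 0.731 and Zfp964 at 0.723, and for Cd36, with Nipsnap3b at 0.7, Catspere2 at 0.679 and Nat8l at 0.671.

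Whether the diet acted differently in the 2 tissues was tested in a joint fit of 36 libraries without the near-identical pairs, in which 2.97% of 17632 genes were called. The effect averaged over genotypes was lower in kidney than in aorta for Lpl (difference of log2 fold changes -1.2 ± 0.21, adjusted p = 0.000588, edgeR) and higher for Apoe (2.28 ± 0.2, adjusted p = 8.23e-09, edgeR). For Cd36 the difference was -0.62 ± 0.21 (adjusted p = 0.116), and with all 40 libraries it was -0.7 (adjusted p = 0.0241). The other 5 members were not called, the nearest being Scarb1 with 0.24 (95% interval -0.01 to 0.5). Whether kidney and aorta libraries came from the same mice is not given, and the fit treated them as independent.

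Among other genes of lipid handling, kidney had changes in both directions. The counts cover whole lists, and the genes named are called ones (6.71% of all genes were called in WT and 6.34% in KO). For fatty acid uptake and binding, 1 of 16 testable genes rose and 1 fell in WT, and 1 rose and 2 fell in KO. Mfsd2a, a transporter of lysophosphatidylcholine, fell in both (55 ± 29.2 to 12.4 ± 4.8 FPM in WT and 52.5 ± 19.7 to 12.4 ± 8.28 FPM in KO, log2 fold changes -2.14 and -2.07). Fabp1, the liver fatty acid binding protein, rose in WT from 0.367 ± 0.3 to 3.02 ± 1.18 FPM (2.99 ± 0.73, adjusted p = 0.0164, edgeR). In KO, Fabp7 rose (9.29 to 14.6 FPM) and Slc27a2, a very long chain acyl-CoA synthetase, fell (4660 to 3500 FPM). The interaction of diet and genotype had 0 of the 16 called, so calls in 1 genotype alone are no difference between genotypes. The median of the list was -0.03 in WT and 0.17 in KO, beside 0 over all genes. Averaged over genotypes, 2 of its 16 testable genes were called higher and 2 lower, where 14.7% of all genes were called.

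**Figure D5:**
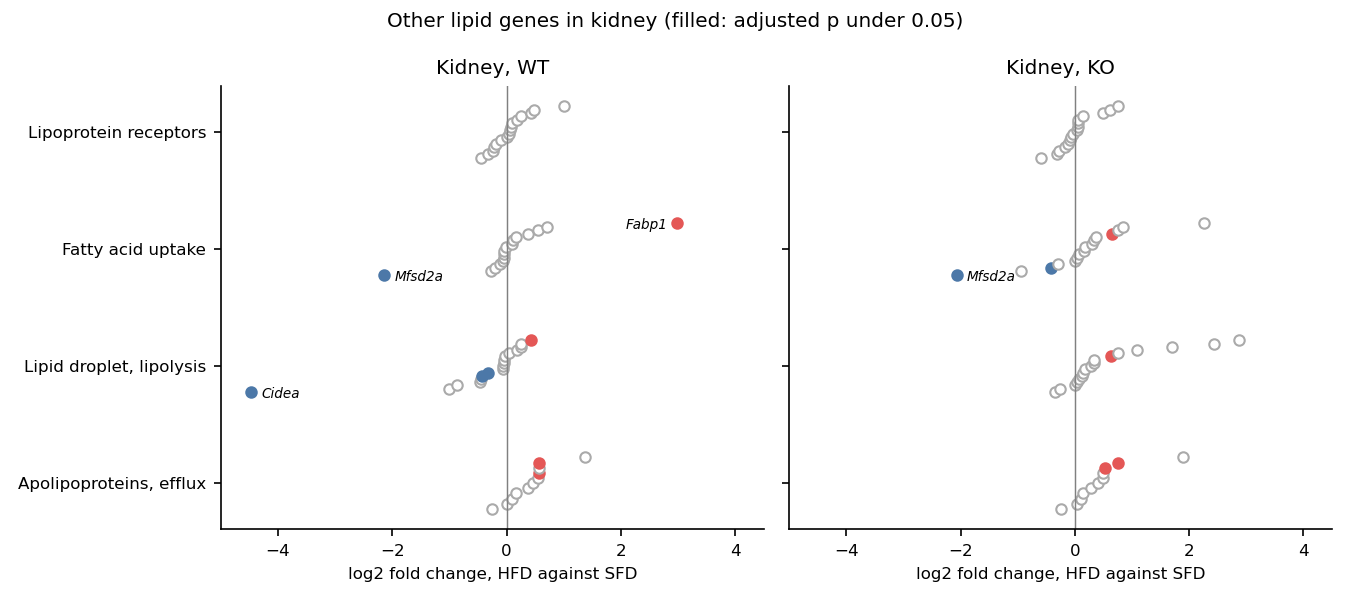
Log2 fold change of HFD against SFD (horizontal axis) in WT and KO kidney for the testable genes of 4 lists of lipid genes (rows), with filled red points for called increases, filled blue points for called decreases and open grey points for the rest. Called genes that changed by more than 1 on the log2 scale are named, and Mfsd2a (-2.14 and -2.07) is named in both genotypes.

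In the list of apolipoproteins and cholesterol efflux genes, 2 of 11 testable genes rose and 0 fell in each genotype. The other 9 were not called in either genotype. The genes that rose were Apob, the structural protein of VLDL (180 ± 25.4 to 266 ± 50.1 FPM in WT and 173 ± 16.5 to 250 ± 43.2 FPM in KO, 0.56 and 0.53), and Mttp, which loads lipid onto it (28.6 ± 6.37 to 42.4 ± 4.83 and 25 ± 4.87 to 41.9 ± 6.2 FPM, 0.57 and 0.75). The list had a median of 0.47 in WT and 0.41 in KO. Averaged over genotypes, 4 of its 11 testable genes were called higher and 1 lower, where 14.7% of all genes were called. In the list of lipid droplet and lipolysis genes, Plin3 rose in both genotypes (47.3 ± 3.64 to 63.9 ± 2.26 and 45.6 ± 2.06 to 70.6 ± 4.43 FPM). Cideb, the lipase Pnpla2 and Cidea fell in WT, so that 1 of 17 rose and 3 fell in WT, and 1 rose and 0 fell in KO. Averaged over genotypes, 1 was called higher and 2 lower. In the interaction of diet and genotype 0 of the 17 were called, with 5 at an unadjusted p under 0.05 by edgeR. Cidea, also a gene of brown fat, fell from 6.93 ± 8.94 FPM, and brown fat markers summed to 41.9 and 99.7 FPM in the WT SFD kidneys a16 and a19 and to 13.9 to 20.1 FPM in the others of that group.

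In aorta, 0 genes of the 4 lists of receptors, fatty acid uptake, lipid droplets and apolipoproteins were called for diet in either genotype by edgeR, with between 0 and 2 genes of a list at an unadjusted p under 0.05.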

How the data were processed

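The authors sequenced paired-end reads, mapped them to GRCm38/mm10 and counted fragments per gene with featureCounts. The study's methods name TopHat2 for mapping, while the file headers and the submitters' processing notes name HISAT2 (2.1.0 in the notes). The deposited tables hold raw counts, 1 column per library, and no column was left unmapped. Strand setting and the treatment of multiply mapped reads are not given in the sources used here. In edgeR 4.0.16 (R 4.3.3) each tissue was fitted whole, with TMM factors, filterByExpr by group and a robust quasi-likelihood fit. This fit was also run on simulated counts, whose outcome is not given here. They were drawn independently for each library, so they did not cover the near-identical pairs. Contrasts were diet within genotype, genotype within diet, their interaction, diet averaged over genotypes and, in a joint fit, kidney against aorta. SE is the log2 fold change over the root of F, and intervals use the fit's degrees of freedom. FPM is counts per 1000000 of effective library size, FPM per kb uses GENCODE M21 exon unions, and likeness uses log2(FPM + 0.5). Alternatives were RLE factors, DESeq2 1.42.0, other filters and thresholds, covariates and left-out libraries. The members and lists were chosen with earlier results of these data known. Named genes are the members, up to 4 called genes of a pathway list and tissue by smallest p, the 3 genes most like each member, and Egfr. The other genes named were chosen after their values were seen. The lists of lipase partners and PPAR targets are not reported here. P-values set a difference between groups against the spread of libraries within groups, and take the libraries as independent. The near-identical pairs were kept in the main fits, except for diet averaged over genotypes and the joint fit.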

Additional observations from a re-analysis of the deposited data

Results flagged for a closer look

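The effect of HFD on Lpl differed between kidney and aorta by -1.2 on the log2 scale (kidney minus aorta, SE 0.21, adjusted p = 0.000588, edgeR), and leaving out libraries or changing the processing gave -1.28 to -1.11. The effect on Apoe differed by 2.28 (SE 0.2, adjusted p = 8.23e-09, edgeR), with a range of 2.22 to 2.43. Both were flagged because the difference between the tissues was itself tested and passed. None of the 64 groups of 5 libraries (8 genes, 2 tissues, 4 groups) held a library far enough from the others to pass Dixon's test, whose critical value is 0.71 for 5 libraries. Chance flags about 1 in 20 such groups.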

How the results depend on the processing

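In kidney 3 members were called for diet in WT and 3 in KO under every alternative, and the number called between genotypes, in the interaction and in aorta was 0 under every alternative run. Averaged over genotypes in kidney it was 3, or 4 without 1 WT HFD library (a15). The tissue difference had 2 called members, or 3 (Cd36 added) with all 40 libraries or without aorta R-4 or R-14. Leaving out single libraries gave -1.86 to -1.64 for Lpl in WT kidney and -1.69 to -1.46 in KO, 2.08 to 2.19 and 2.1 to 2.31 for Apoe, and -0.74 to -0.67 and -0.75 to -0.67 for Cd36. Sign changes arose only for differences that were not called, and their cause was not tested. With the adipocyte score in the aorta fit, WT had 0.17 for Angptl4, 0.06 for Lmf1, 0.2 for Cd36 and -0.04 for Scarb1, and KO had 0.43 for Gpihbp1 and -0.04 for Vldlr. Without both near-identical aortas Gpihbp1 in KO was 0.09, and without R-11 and R-16, a choice made after seeing the data, it was 0.15 and Cd36 -0.11. Lmf1 in KO aorta (0) was -0.01 with a mean of at least 1 FPM and 0 with only the groups compared. Without a8, a9 and a17, also chosen after seeing the data, Angptl4 in KO kidney was -0.11. Leaving out single libraries gave -0.09 to 0.01 for Vldlr and -0.09 to 0.32 for Angptl4 in KO kidney. In WT aorta it gave -0.28 to 0.08 for Angptl4, -0.1 to 0.05 for Lmf1, -0.35 to 0.03 for Cd36 and -0.24 to 0.05 for Vldlr. In KO aorta it gave -0.46 to 0.38 for Gpihbp1, -0.06 to 0.07 for Lmf1, -0.02 to 0.15 for Vldlr and -0.09 to 0.01 for Scarb1. No paired analysis was possible because the labels give no animal identifier that links libraries of different groups or tissues.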
